A study of Mus musculus with 12 samples.

Results

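Calmodulin and a set of small EF-hand calcium buffers were followed across *Trpm3*-mutant, *Trpm3*-KO and wild-type mouse lenses. The genes were taken by symbol from the table of lens counts: *Calm2* and *Calm3*, which encode calmodulin, *Cabp5* (calcium-binding protein 5), *Calb1* (calbindin), *Calb2* (calretinin) and *Pvalb* (parvalbumin). All 6 were found among the 55487 genes of the table. Of these 6, 3 (*Cabp5*, *Calm2* and *Calm3*) were among the 8984 genes tested, which had a level of at least 5 CPM (counts scaled to a common library size) in at least 3 libraries. The other 3 stayed below that filter in all genotypes.

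Poly-A RNA of whole lenses at postnatal day 7 (P7) was profiled by RNA-seq, in 4 genotypes with 3 libraries each. Wild-type (WT) lenses carried 2 normal alleles of *Trpm3*, which encodes a calcium-permeable cation channel, and *Trpm3*-KO lenses came from mice in which the gene was disrupted by homologous recombination. *Trpm3*-I/M lenses were heterozygous, and *Trpm3*-M/M lenses homozygous, for a cataract mutation that replaces an isoleucine of the channel with methionine and was introduced by CRISPR/Cas-9 editing. The mutant and knockout groups are called KO, I/M and M/M from here on. All strains were kept on one inbred B6J background, and each library pooled RNA from 4 male and 4 female lenses, so that differences between single lenses are not seen. Because these are bulk samples, fewer cells of a type and less RNA per cell cannot be told apart.

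The EF-hand is a helix-loop-helix fold whose short acidic loop holds a calcium ion. Calmodulin is a sensor: on binding calcium it changes shape and then switches kinases, phosphatases, pumps and channels on or off, and several separate genes encode the identical protein in mammals. Calbindin, calretinin and parvalbumin act mainly as buffers that blunt calcium transients in neurons and, for parvalbumin, in fast muscle, while CaBP5 is a calmodulin-like protein best known from bipolar cells of the retina.

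Library totals ran from 56162169 to 82090198 counts, and the 16 crystallin genes took 49.4% to 63.9% of them. *Trpm3* itself was at 268 ± 17.3 CPM in WT, 95.3 ± 5.02 in KO, 387 ± 23.4 in I/M and 475 ± 8.02 in M/M (mean ± SD, n = 3), so the libraries labelled KO carried the lowest level of the disrupted gene. The 12 genes of the lens fiber list were all above 3 counts in every library, with a summed level of 272931 to 315596 CPM in WT and KO and of 187958 to 197000 CPM in M/M. The summed levels of marker lists for endothelium, pericytes and fibroblasts, macrophages and cornea were higher in all 3 M/M libraries than in any WT library. The cornea sum in M/M came mostly from *Aldh3a1* (4.32 ± 0.786 CPM), and 2 of its 6 genes were above 3 counts in every M/M library. Calls below mean a fold change (FC) of at least 2 with a false discovery rate (FDR) of at most 0.05 after Benjamini–Hochberg adjustment, from the quasi-likelihood test of edgeR.

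Read per kilobase of exon, the genes fell into 3 tiers on the RPKM scale. In WT lenses *Calm3* was at 74.5 ± 3.35 RPKM, and *Calm2* followed at 31.7 ± 1.96. *Cabp5* stood alone in the middle, at 2.21 ± 0.534 RPKM in WT. The neuronal and muscle buffers made up the lowest tier, with *Pvalb* at 0.276 ± 0.0904, *Calb2* at 0.0385 ± 0.00585 and *Calb1* at 0.00409 ± 0.00708 RPKM, the last of which rests on 3 counts in 1 of the 3 libraries.

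The order of the group means was the same in all 4 genotypes. Neighbouring genes in this order did not overlap over the 3 libraries of a genotype, except for *Pvalb* and *Calb2* in M/M and for *Calb2* and *Calb1* in I/M. *Calb2* and *Calb1* had at most 9 counts in any library, so the order of these low genes is within counting error. The distance between *Cabp5* and *Calm2* was smallest in M/M, where *Cabp5* reached 20.0 ± 3.32 RPKM against 36.8 ± 2.59 for *Calm2*.

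**Figure D1:**
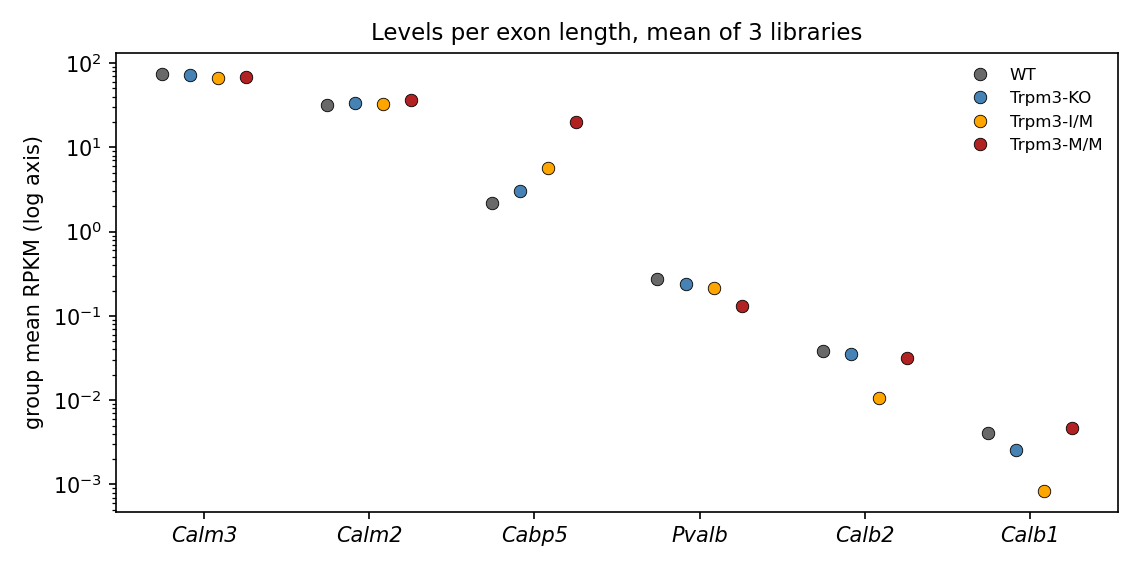
Mean RPKM of 3 libraries per genotype on a log axis, for the 6 genes. *Calm3* and *Calm2* lie at the top in every genotype, *Cabp5* climbs from 2.21 in WT to 20.0 in M/M, and *Pvalb*, *Calb2* and *Calb1* stay below 0.3.

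*Cabp5* (ENSMUSG00000005649) lies on the plus strand of chromosome 7 (GRCm38, 13398132 to 13408887), and no annotated exon of another gene overlaps its exons. Its level was higher in *Trpm3*-mutant lenses, and higher again with 2 mutant alleles than with 1. The region before its RefSeq start site is shown because *Cabp5* was the single gene of the 6 that was called, with every match on either strand to TAATCC, the core motif of the retinal factors CRX and OTX2, in capitals (chr7:13397905-13398154, plus strand, RefSeq, GRCm38.p6; the RefSeq start lies slightly downstream of the GENCODE one):

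*Cabp5* promoter: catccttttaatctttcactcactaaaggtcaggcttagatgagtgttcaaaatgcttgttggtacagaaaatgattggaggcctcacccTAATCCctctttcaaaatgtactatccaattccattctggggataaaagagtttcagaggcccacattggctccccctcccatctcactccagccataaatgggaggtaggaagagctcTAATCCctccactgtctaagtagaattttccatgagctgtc

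The 2 matches began 160 and 41 bases before the start site, both on the plus strand. Among 32851 RefSeq promoters of this length, 6.25% held at least 1 such match and 0.295% held 2 or more. Of the other motifs searched on both strands, the NFAT core TGGAAA was found once, 15 bases before the start on the minus strand (18.6% of promoters), and CRE (TGACGTCA), AP-1 (TGANTCA), a MAF half-site (TGCTGA) and TATAAA were not in this window. A match is a run of letters and not a measured site.

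In WT lenses *Cabp5* was at 6.94, 4.24 and 5.59 CPM, and in KO lenses at 7.91, 7.78 and 7.25 CPM. The 3 I/M libraries held 15.9, 10.5 and 16.3 CPM, and the 3 M/M libraries 56.8, 40.9 and 53.5 CPM. The 4 genotypes did not overlap at all for this gene: the highest WT library was just below the lowest KO library, and the lowest M/M library was far above every I/M library. Groups without overlap were common over all tested genes, at 65.2% in M/M against WT, 44.6% in I/M against WT and 60.5% in M/M against I/M. Deposited counts ran from 202 to 353 per WT library and from 3772 to 4742 per M/M library, so counting error was small beside the spread between libraries.

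*Cabp5* rose in M/M against WT by 3.17 ± 0.19 on the log2 scale (SE, n = 3 per genotype), or 8.98-fold, with an FDR of 1.06e-08 in edgeR's quasi-likelihood test. It was the 1 gene called of the 3 tested, where 6.42% of all tested genes were called higher in this comparison (8.95% in either direction). In I/M it rose by 1.34 ± 0.19 on the log2 scale, or 2.53-fold (FDR 0.000155, edgeR), where 2.58% of tested genes were called higher (3.33% in either direction). Because the heterozygous and homozygous comparisons share the WT libraries, M/M was also set directly against I/M, and there *Cabp5* was 3.54-fold higher (log2 1.83 ± 0.17, FDR 1.63e-06, edgeR), where 3.67% of genes were called higher (4.7% in either direction).

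In KO the fitted difference of *Cabp5* from WT was 0.45 ± 0.21 on the log2 scale, with an FDR of 0.278 in edgeR's quasi-likelihood test. The 2 groups did not overlap (7.25 to 7.91 against 4.24 to 6.94 CPM), and neither did they for 23.2% of all tested genes in this comparison. The interval of the log2 difference ran from -0.0018 to 0.90, so it lies below the heterozygous estimate. None of the 3 tested genes was called in KO by edgeR or by DESeq2, none had an unadjusted edgeR p of 0.05 or less, and 0.568% of all tested genes were called.

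**Figure D2:**
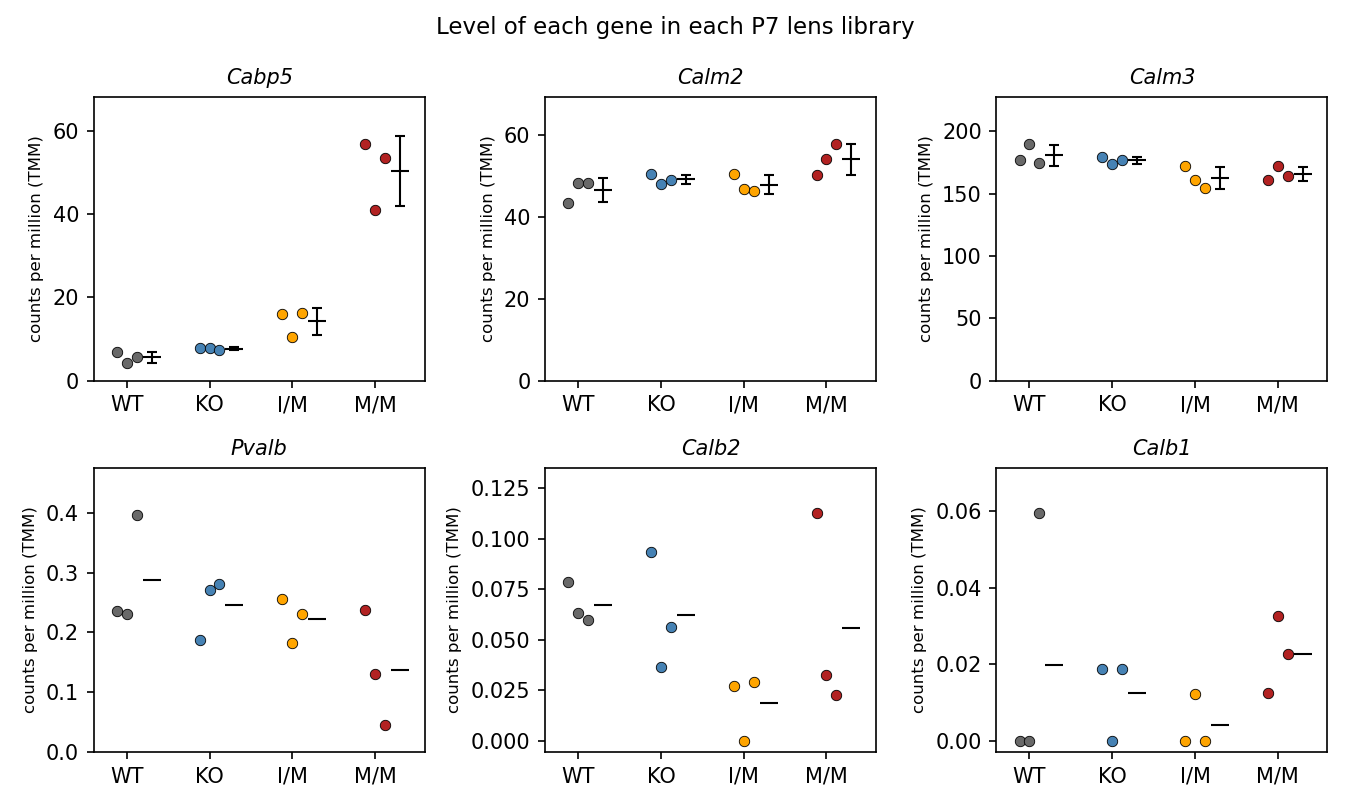
CPM (TMM-scaled) of the 6 genes in each of 12 libraries, with the mean at the right of each group and, in the upper row, its SD. *Cabp5* steps up from WT (4.24 to 6.94) through I/M (10.5 to 16.3) to M/M (40.9 to 56.8). With this scaling *Calm2* and *Calm3* stay nearly level, and the lower row lies at or under 0.4 CPM.

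**Figure D3:**
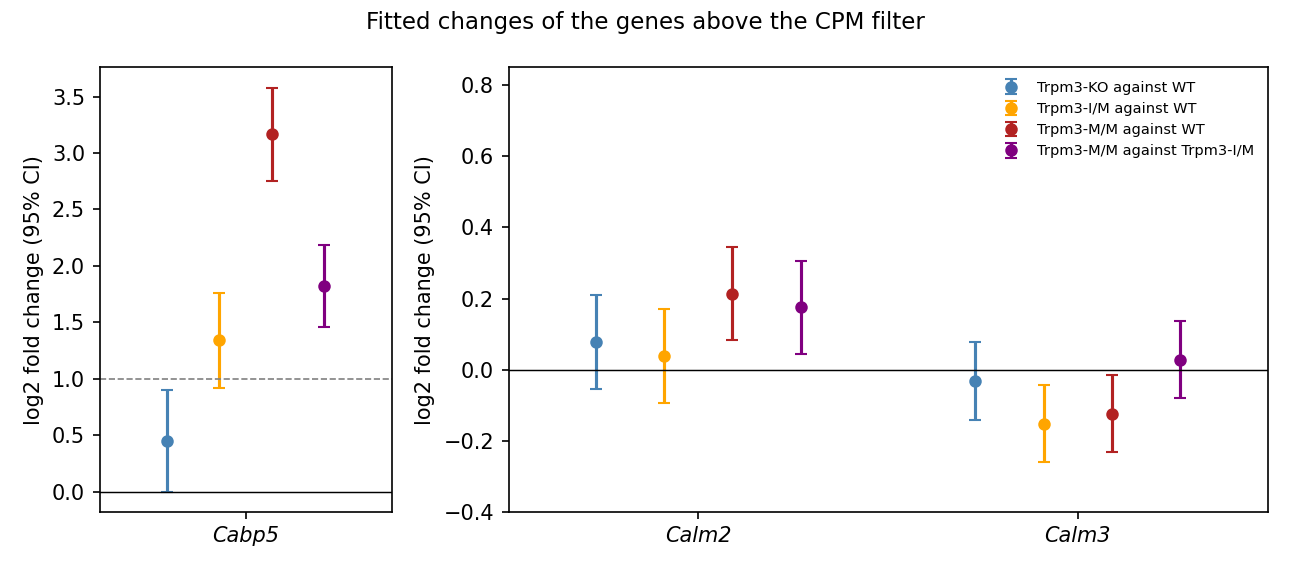
Fitted log2 fold changes with 95% confidence intervals for *Cabp5* (left, dashed line at an FC of 2) and for *Calm2* and *Calm3* (right, a narrower scale) in 4 comparisons. *Cabp5* reaches 3.17 in M/M, whereas *Calm2* and *Calm3* stay between -0.15 and 0.21 in the 4 comparisons.

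Because CaBP5 is best known from retina, retinal markers were read beside it. The retinal bipolar list of 10 genes summed to 69.8 to 83.4 CPM in WT, 78.0 to 91.2 in KO, 60.8 to 74.6 in I/M and 49.1 to 54.4 in M/M, so the sum was lowest where *Cabp5* was highest. In M/M 6 of its 10 genes were above 3 counts in every library, against 3 of 10 in WT. Most of the sum came from *Prkca*, *Nyx* and *Trpm1*. The fall of the sum was that of *Prkca* (54.8 ± 5.13 CPM in WT, 32.4 ± 2.51 in M/M) and *Nyx* (14.8 ± 1.84 and 6.12 ± 1.85). *Trpm1*, a bipolar cell channel gene, was at 11.5 to 13.8 CPM in M/M against 6.80 to 8.38 in WT.

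The defining bipolar markers *Grm6*, *Vsx1* and *Isl1* had at most 3 counts in every library of the 4 genotypes. The photoreceptor list of 11 genes summed to 1.08 to 1.52 CPM in WT, KO and I/M, and to 15.8 to 23.1 CPM in M/M, where 9 of 11 genes were above 3 counts in every library. *Arr3*, a cone arrestin, made up 10.7 to 19.9 CPM of that. *Crx* was low but also higher in M/M, at 0.0759 to 0.513 CPM (7 to 41 counts), against 0 to 0.0396 CPM in WT. It had at most 1 count in any KO or I/M library. *Otx2*, of the bipolar list, averaged 0.0400 CPM in WT and 0.150 in M/M, with overlapping libraries (up to 0.0793 in WT, from 0.0651 in M/M).

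The summed levels of other retinal and ciliary lists were also higher in all 3 M/M libraries than in any WT library. The Muller glia list of 5 genes summed to 20.1 to 21.3 CPM in WT, 18.8 to 21.7 in I/M and 50.2 to 57.7 in M/M. The amacrine, horizontal and ganglion cell list of 15 genes went from 28.3 to 30.9 CPM in WT to 36.4 to 36.9 in M/M, and the ciliary nonpigmented list of 5 genes from 15.4 to 19.1 in WT to 34.95 to 35.94 in M/M. In I/M the latter lists overlapped WT, at 25.6 to 29.2 and 17.8 to 22.3 CPM. Single genes carried most of these rises from WT to M/M. In the Muller glia list these were *Apoe* (mean 6.71 to 25.2 CPM) and *Glul* (7.29 to 21.3), while *Aqp4* went from 6.33 to 5.54. In the ciliary list it was *Aqp1* (9.15 to 28.0 CPM), while *Opn3* went from 5.90 to 3.12. The remaining genes of the Muller glia and ciliary lists were also higher in M/M by their means. The pigmented epithelium list was lower in M/M, at 14.4 to 15.1 CPM against 20.9 to 23.1 in WT. *Gad1*, which makes the transmitter GABA and marks amacrine cells, stepped up in both mutant genotypes as *Cabp5* did, from 0.0983 to 0.278 CPM in WT and 0.0374 to 0.150 in KO to 0.580 to 1.07 in I/M and 3.95 to 4.54 in M/M. Other genes of the amacrine, horizontal and ganglion cell list moved in different ways. *Tfap2a*, most of its sum, was at 25.0 ± 1.15 CPM in WT and 25.3 ± 0.497 in M/M. *Chat* had no counts in any library, while *Rbpms* (1.00, 2.18 and 2.41 CPM in WT, I/M and M/M) and *Tfap2b* (0.0136, 0.0975 and 0.147) were higher in both mutant genotypes. *Gad2* and *Slc32a1* had at most 5 and 3 counts in any library. *Pou4f1* averaged 0.633 CPM in WT, 0.407 in I/M and 0.465 in M/M.

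In I/M, where *Cabp5* was already called, the photoreceptor sum (1.12 to 1.26 CPM) lay below that of WT (1.30 to 1.51 CPM), and *Arr3* had 2 to 8 counts per library. The endothelium list of 7 genes stepped up in the mutant genotypes as *Cabp5* did, from 6.77 to 8.96 CPM in WT and 6.56 to 7.13 in KO to 17.6 to 24.4 in I/M and 51.3 to 63.3 in M/M. The part of retinal, vascular or other cells in the *Cabp5* result was not tested.

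**Figure D4:**
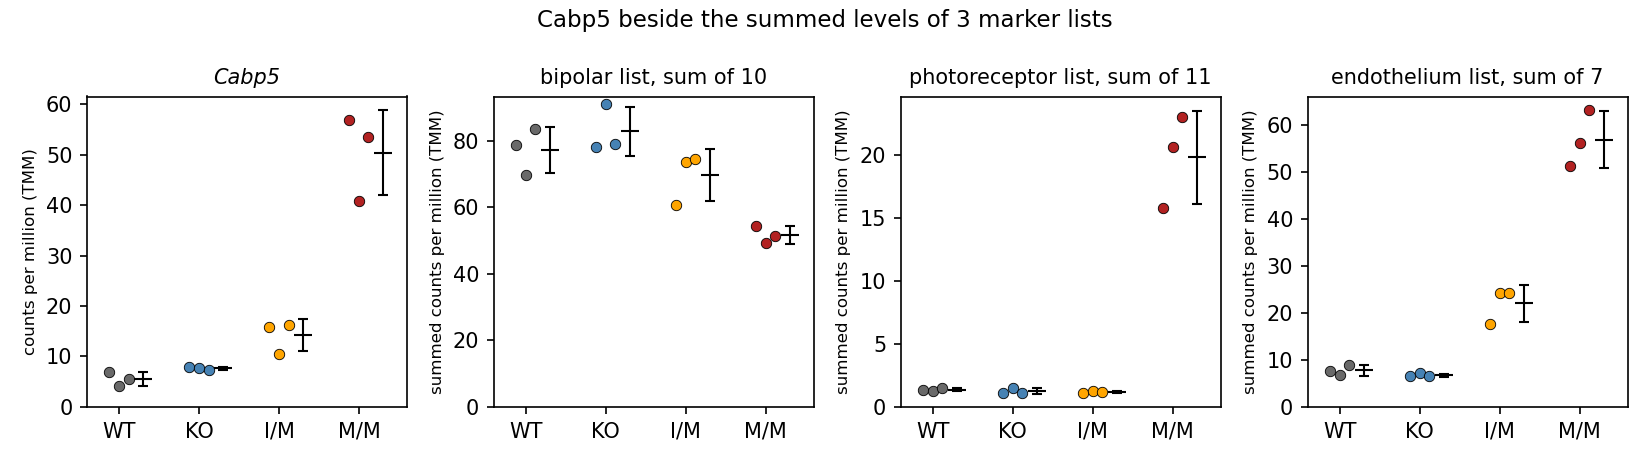
*Cabp5* (CPM) beside the summed CPM of the retinal bipolar, photoreceptor and endothelium marker lists in each of 12 libraries, with the mean and SD at the right of each group. The bipolar sum lies at 49.1 to 54.4 in M/M, the photoreceptor sum stands out in M/M alone, and the endothelium sum steps up in I/M and again in M/M.

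Across the 12 libraries, the genes whose log2 CPM followed *Cabp5* most closely were *Slc9a3r2*, a scaffold of membrane transporters (Pearson r = 0.989), *Col13a1*, a transmembrane collagen (r = 0.988), and *Gje1*, a connexin family gene known from the lens (r = 0.988). These correlations describe 12 libraries that fall into 4 genotypes, and carry no p. *Col13a1* came nearest in size of change, from 1.08 ± 0.0985 CPM in WT to 7.31 ± 0.703 in M/M, whereas *Gje1* went from 125 ± 10.6 to 236 ± 13.5 CPM.

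*Calm2* (ENSMUSG00000036438) lies on the minus strand of chromosome 17 (87433412 to 87446935) and *Calm3* (ENSMUSG00000019370) on the minus strand of chromosome 7 (16915379 to 16924114). Their coding sequences are each 447 bases long and translate to the same protein, but are identical at only 82.6% of coding bases, since they differ at many synonymous positions. The stretch that encodes the first calcium-binding loop is shown because it makes plain how 1 protein is spelled by distinguishable transcripts, with the bases at which *Calm2* and *Calm3* differ in capitals (GENCODE, GRCm38, coding strand):

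*Calm2* loop 1: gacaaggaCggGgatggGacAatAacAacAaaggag

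*Calm3* loop 1: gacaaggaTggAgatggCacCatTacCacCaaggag

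These lie at chr17:87435873-87435908 and chr7:16917667-16917702. Of the 36 bases, 7 differ, and the longest run of identical coding bases between *Calm2* and *Calm3* was 17. The deposited values of *Calm2* were not whole numbers in any of the 12 libraries, those of *Calm3* were off by at most 0.03 in 8, and those of *Cabp5* were whole throughout, and estimates that are not whole arise when reads are divided among features. The levels of *Calm2* are therefore less certain than those of *Cabp5*.

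*Calm2* was at 43.3, 48.2 and 48.3 CPM in WT and at 50.3, 48.0 and 49.0 CPM in KO. In I/M it was at 50.4, 46.7 and 46.4 CPM, and in M/M at 50.2, 54.0 and 57.8 CPM. All 3 M/M libraries were above the WT libraries by a small margin, while the other groups overlapped WT. The log2 difference between M/M and WT was 0.21 ± 0.061, past the FDR threshold (0.00758, edgeR) and short of an FC of 2, as was that between M/M and I/M (0.18 ± 0.060, FDR 0.0268, edgeR). In I/M and KO the log2 differences from WT were 0.04 ± 0.061 (FDR 0.666, edgeR) and 0.08 ± 0.061 (FDR 0.561, edgeR). With scaling to library size alone, *Calm2* was at 40.8 ± 2.25 CPM in WT, 48.2 ± 2.33 in I/M and 67.5 ± 6.15 in M/M. The median log2 difference of all genes from WT then shifted by 0.20 in I/M and 0.50 in M/M. In I/M against WT, *Calm2* passed the FDR threshold in 1 of 7 alternatives other than leaving out libraries.

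*Calm3*, the most abundant of these transcripts, was at 177, 190 and 175 CPM in WT and at 180, 173 and 177 CPM in KO. In I/M it was at 172, 161 and 154 CPM, and in M/M at 161, 172 and 164 CPM. Both mutant groups lay just under the WT range, and KO overlapped it. The log2 differences from WT were -0.15 ± 0.050 in I/M (FDR 0.0351, edgeR) and -0.12 ± 0.050 in M/M (FDR 0.0470, edgeR), but with scaling to library size alone they turned to 0.05 and 0.39, against a shift of the median of all genes by 0.20 and 0.50. Both FDRs were close to the threshold: without single libraries they were above 0.05 in 3 of 12 fits for I/M (up to 0.139, without I/M replicate 3) and in 9 of 12 for M/M (up to 0.237, without M/M replicate 1).

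In KO the log2 difference of *Calm3* was -0.03 ± 0.050 (FDR 0.803, edgeR), which turned to 0.02 with scaling to library size alone. By FDR alone, 3 of the 3 tested genes passed in M/M against WT and 2 of 3 in I/M, where 62.7% and 32.6% of all tested genes did. *Calm3* is among these in both, within the limits just given.

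The share of *Calm3* in the summed counts of *Calm2* and *Calm3* does not depend on scaling between libraries. *Calm3* gave 80.4%, 79.8% and 78.4% of these counts in WT and 78.1%, 78.3% and 78.3% in KO. It gave 77.4%, 77.5% and 76.9% in I/M and 76.2%, 76.1% and 74.0% in M/M. *Calm3* thus led *Calm2* in every library, and its share was lowest in the M/M libraries and next lowest in the I/M libraries.

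The *Calm3* share averaged 79.5 ± 1.03% in WT, 78.2 ± 0.110% in KO, 77.3 ± 0.299% in I/M and 75.4 ± 1.25% in M/M (mean ± SD, n = 3), and *Calm2* made up the remainder. It differed from WT by -4.06 percentage points in M/M, -2.24 in I/M and -1.25 in KO, each with a two-sided exact permutation p of 0.1, the smallest that 3 against 3 libraries can give. The gap between KO and WT was the narrowest, and without WT replicate 1 the difference was -0.816 points. Cell-type markers that move with the mutant genotypes are given above, and their part in these shares was not tested.

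**Figure D5:**
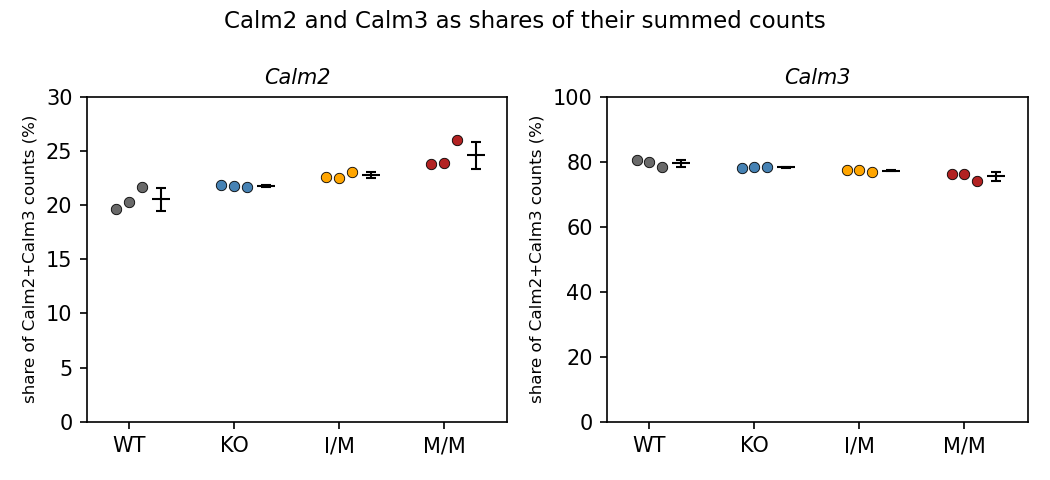
Share of *Calm2* (left) and *Calm3* (right) in their summed counts (%), for each of 12 libraries, with the mean and SD at the right of each group. The *Calm3* share steps down from 79.5% in WT to 77.3% in I/M and 75.4% in M/M, and the *Calm2* share is its complement, drawn on an axis with a shorter range.

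*Calm2* was followed most closely by *Cfdp1*, a craniofacial development gene (r = 0.950 over 12 libraries), *Serf1* (r = 0.943) and *C1galt1c1*, a chaperone for a glycosyltransferase (r = 0.935). For *Calm3* these were *Dalrd3* (r = 0.927), *Fth1*, the ferritin heavy chain (r = 0.913), and *Ppib*, a cyclophilin of the endoplasmic reticulum (r = 0.907). Both patterns are narrow in range, with *Fth1* between 289 ± 18.4 CPM in I/M and 353 ± 12.3 in KO.

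*Pvalb* (chromosome 15, minus strand, 78191114 to 78206400) was close to the detection limit, where 3 counts in a library correspond to 0.0325 to 0.0630 CPM. It had 12, 11 and 20 counts in WT, 10, 15 and 15 in KO, 19, 15 and 16 in I/M and 19, 12 and 4 in M/M. The groups overlapped, and 1 M/M library was as high as 2 of the WT libraries. The means were 0.288 ± 0.0941 CPM in WT and 0.138 ± 0.0964 in M/M, with a two-sided exact permutation p of 0.3.

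With no filter on low counts, *Pvalb* was called lower in M/M (log2 -1.09 ± 0.44, FDR 0.0439, edgeR). In that fit the estimated spread was smaller for well-measured genes too, with an SE of 0.075 against 0.19 for *Cabp5* in the same comparison. The skeletal muscle list of 10 genes summed to 6.23 to 7.42 CPM in WT and 5.54 to 6.32 in M/M. Most of the WT sum came from *Actn3* (5.47 ± 0.583 CPM). Above 3 counts in every library were 4 of the 10 genes in WT and 3 of 10 in M/M. The part of muscle in the *Pvalb* counts was not tested.

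*Calb2* (chromosome 8, minus strand, 110137502 to 110168210) had 4, 3 and 3 counts in WT, 5, 2 and 3 in KO, 2, 0 and 2 in I/M and 9, 3 and 2 in M/M. The I/M libraries were under all WT libraries (exact permutation p = 0.1), with 0 to 4 counts per library in both groups, so no fold is given. *Calb1* (chromosome 4, plus strand, 15881264 to 15908064) had 0, 0 and 3 counts in WT, 1, 0 and 1 in KO, 0, 1 and 0 in I/M and 1, 3 and 2 in M/M. A count of 0 allows up to 3 counts, so no difference in *Calb1* was detectable at this depth. Across the comparisons of these 3 genes the exact permutation p ran from 0.1 to 1.0.

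The wider family was read from lists of EF-hand and calmodulin-target genes. Of 57 EF-hand genes, 22 were tested. In M/M against WT, *Cabp5* was called higher and *Vsnl1*, a visinin-like sensor, lower (6.49 ± 0.833 to 2.43 ± 0.252 CPM, log2 -1.41 ± 0.12), and these 2 of 22 (9.09%) stand beside 8.95% of all tested genes. *Cabp5* alone was called in I/M (4.55% against 3.33%). In KO no gene of this list was called by edgeR or DESeq2, and 2 had an unadjusted edgeR p under 0.05 (18.1% of all tested genes did), both lower, among them *Necab1* (log2 -0.23 ± 0.059, FDR 0.0398, edgeR).

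Of 64 listed genes whose proteins bind or are switched by calmodulin, 38 were tested. In M/M against WT, 12 were called higher and 2 lower (36.8%, beside 8.95% of all tested genes), with a median log2 fold change of 0.43 against -0.0042 over all genes. A gene low in WT is tested only when it is high elsewhere: 6 of the 38 reached 5 CPM in no WT library, and 5 of these were among the 12, so the filter sets a part of this count. Of the other 32, 28.1% were called, beside 5.47% of all tested genes that reached 5 CPM in a WT library. In I/M 7 were called higher and 1 lower (21.1% beside 3.33%). Of these 7, 3 reached 5 CPM in no WT library, and without such genes the share called was 15.6% beside 1.57%. In M/M against I/M 2, *Cnn2* and *Pde1c*, were higher (5.26% beside 4.7%). Both were below 5 CPM in every WT library, and without M/M replicates 1, 2 and 3 in turn the count was 1, 0 and 0. In KO none was called by edgeR or DESeq2, and 5 in each direction had an unadjusted edgeR p under 0.05, beside the 18.1% of all tested genes given above.

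The plasma membrane calcium pump gene *Atp2b4* went from 0.609 ± 0.0748 CPM in WT to 13.6 ± 0.702 in I/M and 26.3 ± 1.87 in M/M (log2 4.47 and 5.42), and *Atp2b1*, another such pump, rose by 1.31 and 2.05 on the log2 scale. The calponin gene *Cnn2* rose by 4.06 in M/M, the phosphodiesterase gene *Pde1c* by 1.83, and the inositol trisphosphate kinase gene *Itpkb* by 2.22. *Pcp4l1*, a relative of a small calmodulin-binding peptide, rose to about the same level in both mutant genotypes (49.2 ± 8.01 and 50.6 ± 6.82 CPM). *Eef2k*, *Adcy1* and *Rcan1*, a kinase, a calcium-stimulated adenylyl cyclase and a calcineurin inhibitor, rose by 1.80 to 1.86 in M/M.

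The kinase gene *Camk1d* fell in both mutant genotypes, from 28.1 ± 1.59 CPM in WT to 11.3 ± 0.267 in I/M and 7.11 ± 0.357 in M/M. It was the single gene of this list called lower in I/M. The endothelium marker sum given above was higher in the same libraries. The pericyte and fibroblast sum was 73.5 to 89.5 CPM in WT, 97.0 to 123 in I/M and 262 to 395 in M/M. The part of these cells in the counts of called genes was not tested.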

How the data were processed

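Whole-lens RNA from 12 libraries (3 per genotype, labels as groups) was sequenced by the authors, who used DRAGEN to align and quantify reads on mm10 and deposited estimated counts per gene, a part of which are not whole numbers. A second deposited table held the same counts for a subset and the authors' own fold changes and p-values, which were not used. Estimated counts were rounded, scaled by TMM and fitted for all 12 libraries together in edgeR 4.0.16 (R 4.3.3), with genes kept at 5 CPM in at least 3 libraries, FC of at least 2 and FDR of at most 0.05. The fit was tested on simulated data. RPKM used union exon lengths of GENCODE GRCm38 genes. Genes below the filter and the shares of *Calm2* and *Calm3* were compared by two-sided exact permutation tests. Genes named were the 6, *Trpm3*, up to 10 called genes per list and the 3 most alike genes of each tested gene; retinal, muscle and other markers come from marker lists, and single markers were picked after their values were seen. The genes and lists were chosen with earlier results of these data known. Alternatives were scaling, DESeq2 1.42.0, filters, a replicate block, no FC threshold and leaving out each library. Pools may share litters, which the labels do not say, so p-values measure the spread between these libraries. Some items are not reported here.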

Additional observations from a re-analysis of the deposited data

How the results depend on the processing

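*Cabp5* kept its direction and its calls in all 20 alternatives of each comparison. Without single libraries its log2 fold change ran from 3.00 to 3.35 in M/M against WT, 1.18 to 1.52 in I/M against WT, 0.29 to 0.63 in KO against WT and 1.65 to 1.98 in M/M against I/M. The number of called genes of the 6 remained 1, 1, 0 and 1 without single libraries, and that of EF-hand genes 2, 1, 0 and 2. Called calmodulin-target genes ran from 10 to 15, from 8 to 9, stayed at 0, and ran from 0 to 2. For the last, the lower counts came without each M/M library in turn (1, 0 and 0), where 35 and not 38 target genes passed the filter.

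With no filter on low counts, 2 of the 6 genes, 11 of 56 EF-hand genes and 24 of 64 target genes were called in M/M against WT, 6 and 13 of the lists in I/M, and 5 and 11 in M/M against I/M, beside 10.7%, 3.77% and 7.24% of the 32253 genes in that fit. That fit had smaller errors, as given for *Cabp5* above. With a filter of 1 CPM, EF-hand calls were 4 in M/M and 3 in I/M against WT, and 7 target genes were called in M/M against I/M. Of all 12638 genes in that fit, 1224 were called higher and 410 lower in M/M against WT. The counts were 505 and 158 in I/M against WT, and 821 and 188 in M/M against I/M. Scaling to library size alone gave 4 EF-hand calls in M/M against WT, and 1 EF-hand and 10 target calls in M/M against I/M, and turned *Calm3* to 0.39, 0.051 and 0.019 in M/M, I/M and KO. With that scaling, 1277 of all 8984 tested genes were called higher and 77 lower in M/M against WT. In M/M against I/M these were 533 and 31. By FDR alone, 3 of the 6 genes, 18 EF-hand and 30 target genes passed in M/M, 2, 10 and 21 in I/M, 0, 1 and 4 in KO, and 2, 12 and 27 in M/M against I/M.

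Small differences that missed both thresholds changed sign. *Calm3* in M/M against I/M came to -0.0073 with no filter. Without single libraries, *Calm2* ran from -0.016 to 0.061 in I/M against WT, and *Calm3* from -0.055 to 0.0060 in KO against WT and from -0.0077 to 0.072 in M/M against I/M. The FDR of *Calm3* in M/M and I/M against WT was also above 0.05 with only the libraries compared (0.0715 and 0.0660) and with no filter (0.0838 and 0.193). That of *Calm2* in M/M against I/M was above it in 3 of 12 fits without single libraries (up to 0.0923) and with no filter (0.101).

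Without single libraries, the difference of the *Calm3* share from WT ran from -1.82 to -0.816 points in KO, from -2.81 to -1.80 in I/M and from -4.63 to -3.34 in M/M, and that of *Calm2* took the same sizes with the opposite sign.

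Libraries with the same replicate number did not deviate together (correlations from -0.26 to 0.15), so the numbers do not pair the samples. With the replicate block *Cabp5* was at 3.17, 1.34, 0.47 and 1.83 in the order above, the counts of calls of the 6 genes and both lists did not change, the FDR of *Calm3* was 0.0626 in M/M and 0.0506 in I/M against WT, and all calls went from 577 to 579 higher in M/M against WT. Depth limits *Pvalb*, *Calb2* and *Calb1*, which had 0 to 20 counts per library.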
